A study of Arabidopsis thaliana with 28 samples.

Results

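The genes described are HDA5, HDA18, HDA15, HDA14, HDA8, HDA2, SRT1 and SRT2, the class II histone deacetylases of Arabidopsis thaliana with the smaller deacetylase families set beside them. They were taken by locus from the 2 deposited tables of gene counts, in which all 8 were found among 36632 genes. All 8 also passed the filter on low counts in both tables, among 20771 genes tested in the genotypes and 20201 in the treated seedlings. RNA was sequenced from seedlings 12 days after germination, in 28 libraries that the series calls independent biological replicates. The series bears on histone deacetylation and the histone variant H2A.Z. Plants of 6 genotypes grew on soil in long days at 21 °C and had 3 libraries each. They were the H2A.Z line h2a.z-5, mutants of a deacetylase each (hda6-1, hda9-1), crosses of each with that line (hda6-1 h2a.z-5, hda9-1 h2a.z-5) and the wild type Col-0. The line h2a.z-5 is a triple mutant with a frameshift in HTA8 and 2 SALK insertions, and hda6-1 and hda9-1 are SALK lines. Each of these genotypes is thus 1 line, or 1 cross, with no second allele. Col-0 seedlings in MS medium with 1% sucrose gave 5 libraries with trichostatin A (TSA) and 5 without it (Mock). Neither the dose nor the length of the TSA treatment is stated in the sources used.

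Histone deacetylases take acetyl groups off lysines of histones and other proteins, and acetylated histones are typical of active genes. HDA5, HDA15 and HDA18 are the HDA1-like class II enzymes of Arabidopsis, which need zinc, as do the related HDA8 and HDA14 and the more distant HDA2, often placed in a class of its own. SRT1 and SRT2 are sirtuins, which use NAD and belong to a separate family, so the 8 genes are not 1 class in the strict sense. TSA blocks zinc-dependent deacetylases and is not an inhibitor of sirtuins. HDA5 is known to act with HDA6, FVE and FLD on flowering time, HDA15 with PIF factors on light responses, HDA18 in the cell pattern of the root epidermis, and HDA14 in organelles.

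HDA18 and HDA5 stand one behind the other on the minus strand of chromosome 5. In the TAIR10.1 annotation HDA18 (AT5G61070) lies at chr5:24571095-24574387 with 8 exons, and HDA5 (AT5G61060) at chr5:24566783-24571072 with 13. Transcription runs from HDA18 towards HDA5, and 22 bases, gaatctccaaattggtcaaact, part the 2 gene models. Exons 2, 3, 4, 5 and 7 have the same length in both genes, 202, 147, 113, 212 and 171 bases. Their coding sequences were identical at 75.5% of 1884 aligned bases, against 53.1% to 61.3% for every other pair of the 8 genes. The 61.3% was for HDA18 with the sirtuin gene SRT2, of a separate family, so that range is no measure of relatedness. Exon 4 is shown because it lets HDA18 and HDA5 be compared base by base. It was identical at 101 of 113 bases, and capitals mark the 12 that differ (minus strand, 5′ to 3′, chr5:24573033-24573145 in HDA18 and chr5:24569548-24569660 in HDA5).
HDA18: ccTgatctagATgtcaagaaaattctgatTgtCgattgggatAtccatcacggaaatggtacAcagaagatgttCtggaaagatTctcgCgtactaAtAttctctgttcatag
HDA5: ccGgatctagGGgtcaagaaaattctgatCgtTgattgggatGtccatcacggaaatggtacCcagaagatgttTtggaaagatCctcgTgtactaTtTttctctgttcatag
The longest stretch that the coding sequences share without a difference is 73 bases, at coding positions 581 to 653 of HDA18 and 482 to 554 of HDA5. It is shown because reads inside it cannot be given to 1 of the genes by sequence.
Shared run: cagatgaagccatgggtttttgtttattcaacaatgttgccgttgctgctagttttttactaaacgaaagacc
Of all 50-base windows of the HDA18 exons, 1.08% also occur in the HDA5 exons, and no window of 75 bases does. Of the 50-base windows inside single exons, 1.2% of those of HDA5 and 1.2% of those of HDA18 had a second copy elsewhere in the genome, and none did for the other 6 genes. How the authors counted reads with more than 1 match is not stated.

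**Figure D1:**
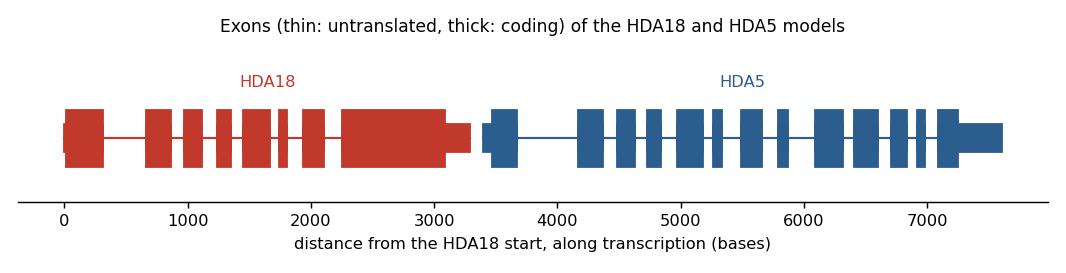
Exon maps of HDA18 (red) and HDA5 (blue) along the direction of transcription, in bases from the HDA18 start, with thick boxes for coding and thin boxes for untranslated parts and lines for introns. The transcript with the longest coding sequence is drawn for each gene, so the drawn HDA5 transcript begins a little after the start of its gene model, which lies 22 bases behind HDA18.

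The other 6 genes lie apart: HDA15 (AT3G18520) at chr3:6361159-6365705, HDA14 (AT4G33470) at chr4:16102595-16105550, HDA8 (AT1G08460) at chr1:2672198-2674721, HDA2 (AT5G26040) at chr5:9099152-9101682, SRT1 (AT5G55760) at chr5:22567222-22571008 and SRT2 (AT5G09230) at chr5:2871365-2873789. HDA2 overlaps AT5G26030 on the opposite strand by 34 bases, and SRT2 overlaps AT5G09240 by 130 bases and holds AT5G01615. Whether counting used strand is not stated, so the counts of HDA2 and SRT2 may hold some reads of these neighbours.

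The depth was 30257874 to 40395659 gene counts per library in TSA and Mock, and 32795474 to 39633678 in the genotypes. The H2A.Z gene HTA11 averaged 1.04 to 2.72 CPM in the groups whose label carries h2a.z-5, against 61.4 CPM in Col-0. CPM is the count scaled to a common library size. The other H2A.Z genes fell less. HTA9 averaged 44.0 to 57.9 CPM in these groups, against 144 CPM in Col-0, and HTA8 3.78 to 8.56 CPM, against 16.9 CPM. HDA9 averaged 1.62 CPM in hda9-1 and 1.01 CPM where that mutation was combined with h2a.z-5, against 13.9 CPM in Col-0. HDA6 did not follow its label in the same way. The libraries labelled hda6-1 averaged 129 ± 28.3 CPM of HDA6 and those of the combined mutant 16.9 ± 1.07 CPM, against 16.7 ± 3.40 CPM in Col-0 (SD, n = 3). Any direction drawn from these 2 groups rests on those labels. The material is labelled as seedlings, but the root markers RHD6 and EXPA7 were at 0 in every soil library, and the 8 root markers summed to at most 1.44 CPM there. The 4 leaf markers summed to between 31357 and 69489 CPM in the soil libraries.

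Levels of different genes were compared per kilobase of exons. In Col-0, HDA14 stood highest at 23.0 ± 3.50 CPM per kilobase (SD, n = 3), then HDA5 at 11.1 ± 1.44, SRT2 at 9.26 ± 1.59, HDA15 at 8.91 ± 0.150, HDA8 at 6.63 ± 0.169, SRT1 at 2.39 ± 0.419, HDA2 at 1.26 ± 0.268 and HDA18 last at 0.586 ± 0.185 CPM per kilobase. Only HDA5 with SRT2 and SRT2 with HDA15 had overlapping ranges among neighbours in this order. In Mock the order began with HDA5 at 19.1 ± 5.25 and HDA15 at 12.8 ± 2.58 CPM per kilobase (SD, n = 5), followed by HDA14 at 9.43 ± 2.20, SRT2 at 9.35 ± 3.17, HDA8 at 9.31 ± 0.559, HDA2 at 3.68 ± 1.13 and SRT1 at 2.82 ± 0.298, with HDA18 again last at 0.766 ± 0.475. The ranges of neighbours overlapped in Mock except between HDA8 and HDA2 and between SRT1 and HDA18. HDA18, the gene of root epidermal patterning, was thus the lowest of the 8 in both kinds of untreated Col-0 seedling. Soil and medium libraries come from separate tables and growth conditions, which cannot be told apart, so levels across them were not tested.

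HDA18 was higher in 4 of the 5 mutant genotypes than in Col-0, and it was the 1 member called there. A gene is called at an adjusted p under 0.05 by edgeR's quasi-likelihood test, with Benjamini-Hochberg adjustment over all genes tested. The 3 h2a.z-5 libraries had 4.01, 3.65 and 4.06 CPM, those labelled hda6-1 had 2.60, 2.29 and 3.77 CPM, and the hda9-1 libraries had 1.09, 1.63 and 1.5 CPM. The hda6-1 h2a.z-5 libraries had 4.00, 3.57 and 4.80 CPM, the hda9-1 h2a.z-5 libraries had 3.23, 3.20 and 2.91 CPM, and Col-0 had 0.991, 1.19 and 1.80 CPM. Every library of those 4 genotypes lay above every Col-0 library, while the hda9-1 libraries lay among those of Col-0. Of all genes, 15.9% had ranges that did not overlap with Col-0 in h2a.z-5, 16.2% in hda6-1, 23.5% in hda6-1 h2a.z-5 and 22.8% in hda9-1 h2a.z-5. These levels rest on 78 to 204 counts per library in the 4 genotypes, 40 to 63 in hda9-1 and 38 to 71 in Col-0. In bulk tissue, a change in the share of cells that express a gene and a change in RNA per cell cannot be told apart.

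**Figure D2:**
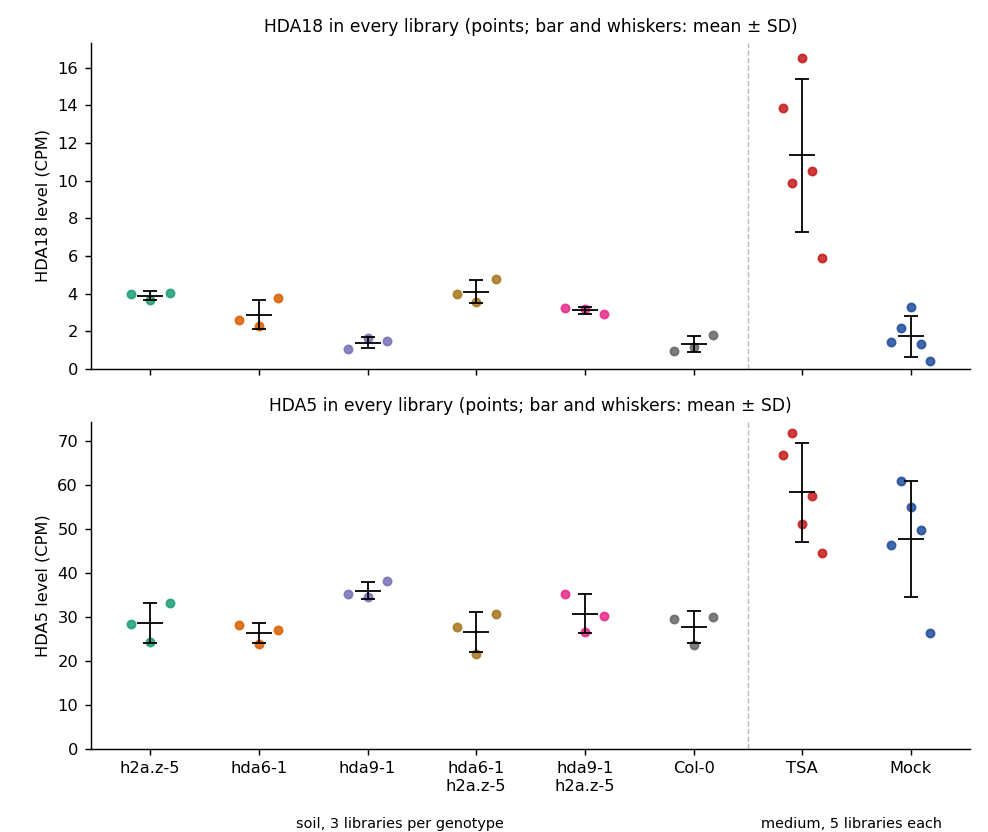
Scaled level (CPM) of HDA18 (top) and HDA5 (bottom) in every library, with the mean and SD of each group in black; the 6 soil genotypes stand left of the dashed line and the TSA and Mock seedlings right of it. HDA18 averaged 11.3 CPM in TSA against 1.73 CPM in Mock, while the TSA and Mock ranges of HDA5 overlap.

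The log2 fold change of HDA18 over Col-0 was 1.55 ± 0.24 (SE) in h2a.z-5 (edgeR adjusted p = 0.00356), 1.12 ± 0.24 in the libraries labelled hda6-1 (0.0120), 1.63 ± 0.24 in hda6-1 h2a.z-5 (0.000431) and 1.23 ± 0.24 in hda9-1 h2a.z-5 (0.00821). In hda9-1 it was 0.08 ± 0.25, which did not pass (edgeR adjusted p = 0.912). In each of the first 4 contrasts 1 of the 8 members was called. In hda9-1 0 of 8 were called by edgeR, 2 had an unadjusted p under 0.05, and DESeq2 called 1. Of all genes tested, 0.910% were called in h2a.z-5, 3.05% in hda6-1, 1.75% in hda9-1, 6.01% in hda6-1 h2a.z-5 and 5.89% in hda9-1 h2a.z-5. These shares rest on single libraries in places. The 189 genes called in h2a.z-5 fell to between 95 and 114 without any 1 library of the contrast other than replicate 1 of Col-0, and the 363 in hda9-1 to between 53 and 133 without any but replicate 3 of Col-0. The 1248 in hda6-1 h2a.z-5 fell to 825 without replicate 3 of Col-0, and the 1224 in hda9-1 h2a.z-5 to between 419 and 803 without any but its own replicate 2. The 5 contrasts share the Col-0 libraries and are not independent of each other. In hda6-1 the call was lost without replicate 1 or 2 of Col-0 or replicate 3 of hda6-1 (edgeR adjusted p 0.0588 to 0.0820). In fits of only the 2 groups compared, HDA18 missed the threshold in h2a.z-5 (0.0597), hda6-1 (0.139) and hda9-1 h2a.z-5 (0.121), with log2 fold changes of 1.56, 1.13 and 1.23. The authors' deposited tables give HDA18 log2 fold changes over Col-0 of 1.56 for h2a.z-5, 1.15 for hda6-1 and 0.08 for hda9-1, and of 1.65 for hda6-1 h2a.z-5 and 1.23 for hda9-1 h2a.z-5.

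Averaged over the 3 backgrounds (Col-0, hda6-1 and hda9-1), HDA18 was higher with h2a.z-5 than without it, by 1.07 ± 0.14 on the log2 scale (edgeR adjusted p = 0.000131), where 1 of 8 members and 8.07% of all genes were called. Without the libraries whose label carries hda6-1, this average was 1.35 ± 0.17 (edgeR adjusted p = 0.00146). In hda9-1 h2a.z-5 HDA18 was higher than in hda9-1, by 1.15 ± 0.24 (edgeR adjusted p = 0.0313, 0.944% of all genes called). That call was lost on leaving out any library of these 2 groups other than replicate 3 of hda9-1 h2a.z-5 (edgeR adjusted p 0.0727 to 0.121). In hda6-1 h2a.z-5 HDA18 did not pass against hda6-1, at 0.51 ± 0.23 (edgeR adjusted p = 0.469, 0 of 8 members and 2.26% of all genes called). Nor did it pass in hda6-1 h2a.z-5 against h2a.z-5, at 0.08 ± 0.23 (0.992, 0 of 8 and 2.02%), or in hda9-1 h2a.z-5 against h2a.z-5, at -0.33 ± 0.23 (0.584, 0 of 8 and 0.640%). DESeq2 called 0 of 8 in these 3 contrasts too, and 1 member had an unadjusted p under 0.05 in the first of them and 0 in the others.

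The interaction terms ask whether the changes of 2 mutations add up on the log2 scale. For HDA18 the hda6-1 by h2a.z-5 term was -1.04 ± 0.33, with an unadjusted p of 0.00642 and an edgeR adjusted p of 1.00. The hda9-1 by h2a.z-5 term was -0.41 ± 0.34 (edgeR adjusted p = 1.00). edgeR and DESeq2 called 0 of 8 members in either term, 1 and 0 members had an unadjusted p under 0.05, and 0.0530% and 0.0337% of all genes were called. A pair of direct comparisons was added after the data were seen. HDA18 was higher in the libraries labelled hda6-1 than in hda9-1, by 1.04 ± 0.24 (edgeR adjusted p = 0.0103, 1 of 8 members and 10.7% of all genes called), and without replicate 3 of hda6-1 the adjusted p was 0.0530. Of the combined mutants, hda6-1 h2a.z-5 minus hda9-1 h2a.z-5 came to 0.40 ± 0.23 (edgeR adjusted p = 0.279, 0 of 8 members and 9.04% of all genes called). There 1 member had an unadjusted p under 0.05, and DESeq2 called 0.

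HDA5, the neighbour of HDA18, passed in no genotype contrast of the main test. Its libraries stood at 28.4, 24.3 and 33.3 CPM in h2a.z-5, at 28.3, 23.9 and 27.0 CPM in hda6-1 and at 35.2, 34.6 and 38.2 CPM in hda9-1. They stood at 27.8, 21.7 and 30.6 CPM in hda6-1 h2a.z-5, at 35.3, 26.6 and 30.3 CPM in hda9-1 h2a.z-5, and at 29.4, 23.5 and 30.1 CPM in Col-0. Only the hda9-1 libraries lay wholly above Col-0, and 24.3% of all genes had ranges that did not overlap in that comparison. The log2 fold change of HDA5 in hda9-1 was 0.38 ± 0.16 (edgeR adjusted p = 0.240). Blocking on the replicate number gave 0.39 ± 0.10, which passed (edgeR adjusted p = 0.0164), where 16.3% of all genes were called. With the block HDA5 was also lower in hda6-1 than in hda9-1, by -0.45 ± 0.10 (edgeR adjusted p = 0.00369, 29.5% of all genes called), against 0.0888 without it.

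The share of HDA18 in the summed counts of the pair shows how 2 neighbours of like sequence divided within a library. It averaged 12.1 ± 1.13% in h2a.z-5, 9.81 ± 2.13% in hda6-1, 3.75 ± 0.754% in hda9-1, 13.4 ± 0.788% in hda6-1 h2a.z-5 and 9.30 ± 1.26% in hda9-1 h2a.z-5, against 4.58 ± 1.21% in Col-0 (SD, n = 3). The single Col-0 libraries had 3.26% (exact Clopper-Pearson 95% interval 2.34 to 4.41), 4.83% (3.44 to 6.58) and 5.63% (4.43 to 7.05), and the intervals cover counting error only. The lowest library of the 4 genotypes with raised HDA18 had 8.37% (7.02 to 9.89), and all 12 lay above all 3 of Col-0. In these 4 contrasts the exact permutation test, two-sided, gave p = 0.1, the smallest that 3 against 3 libraries allow, and in hda9-1 it gave p = 0.4. Over all soil libraries, those whose label carries h2a.z-5 averaged 5.56 percentage points more, at 11.6% against 6.05%. An exact permutation test of that difference within the 3 backgrounds, with libraries taken as unpaired, gave p = 0.00025, the smallest it can give. Within replicate numbers, the exact sign-flip test of the same difference gave p = 0.00391, also its smallest value. For each mutant against Col-0 the exact sign-flip permutation test gave p = 0.25, which is its smallest value and cannot pass.

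**Figure D3:**
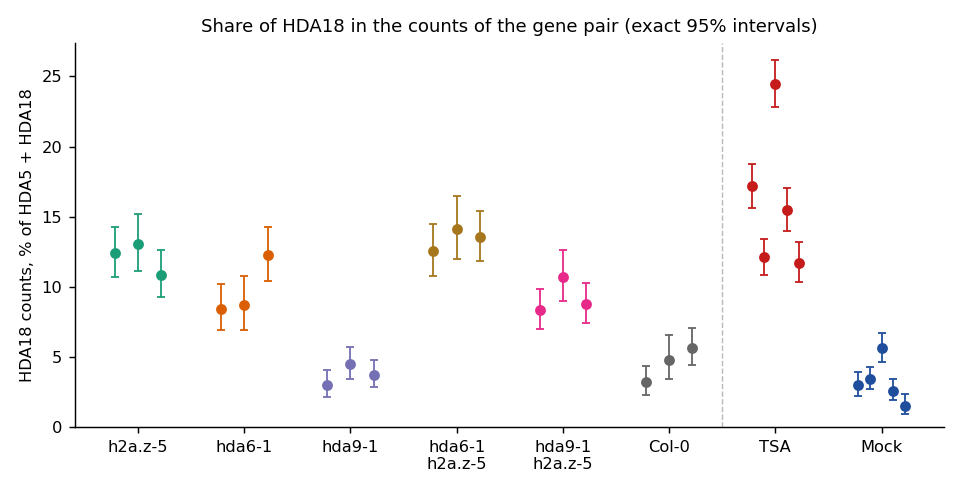
HDA18 counts as a percentage of HDA5 plus HDA18 counts in each library, with exact 95% intervals of the counting error; groups run from the mutants to Col-0, then TSA and Mock. The TSA libraries lie between 11.7% and 24.4%, all above the Mock libraries, which lie between 1.54% and 5.65%.

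HDA8, a class II gene of less known role, was highest in hda9-1 among the soil genotypes. Its libraries had 24.8, 21.9 and 19.8 CPM in hda9-1, against 15.9, 16.1 and 15.3 CPM in Col-0, and the groups did not overlap, as for 24.3% of all genes. The log2 fold change was 0.49 ± 0.14 and missed the threshold (edgeR adjusted p = 0.0815). It passed with replicate number as a block (0.49 ± 0.10, edgeR adjusted p = 0.00455), as did 16.3% of all genes, and in DESeq2 (adjusted p = 0.0197), and the authors' deposited table gives 0.49 with an adjusted p of 0.0561. In the libraries labelled hda6-1 HDA8 had 20.3, 20.4 and 17.6 CPM, also above every Col-0 library, where 16.2% of all genes had ranges that did not overlap. That change was 0.31 ± 0.14 (edgeR adjusted p = 0.498). Averaged over backgrounds, HDA8 was lower with h2a.z-5 by -0.20 ± 0.08 (edgeR adjusted p = 0.162), which passed with the block (0.0196, 21.4% of all genes called).

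HDA2, the class IV enzyme gene, was lowest in hda9-1 h2a.z-5. It had 0.982, 1.19 and 1.23 CPM there, from 38 to 58 counts, against 1.78, 1.41 and 2.17 CPM in Col-0, from 45 to 86 counts. The ranges did not overlap, as for 22.8% of all genes. The log2 fold change was -0.66 ± 0.22 (edgeR adjusted p = 0.0880), and with the replicate block it was -0.64 ± 0.19 and passed (edgeR adjusted p = 0.0207, 23.7% of all genes called). With the block HDA2 was also higher in hda6-1 h2a.z-5 than in hda9-1 h2a.z-5, by 0.52 ± 0.19 (edgeR adjusted p = 0.0487), where 28.5% of all genes were called, against 0.144 without it.

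HDA15, which acts with PIF factors, was called in no genotype contrast. It had 22.3, 22.3 and 29.3 CPM in h2a.z-5, 22.6, 25.8 and 25.9 CPM in hda6-1, and 27.9, 24.4 and 27.2 CPM in hda6-1 h2a.z-5, against 21.8, 21.2 and 21.8 CPM in Col-0. These 3 genotypes lay above Col-0 in every library, but the changes of 0.19 ± 0.16, 0.20 ± 0.16 and 0.30 ± 0.16 on the log2 scale did not pass (edgeR adjusted p 0.382 to 0.851). Ranges that did not overlap were found for 15.9% of all genes in h2a.z-5 and 23.5% in hda6-1 h2a.z-5. In hda9-1 it had 20.9 to 23.3 CPM. In hda9-1 h2a.z-5 HDA15 had 25.1, 23.8 and 15.5 CPM, and replicate 3 lay below all others.

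HDA14, SRT1 and SRT2 were not called against Col-0 in any genotype. HDA14, the organellar enzyme gene and the highest of the 8 on soil, had group means from 29.3 CPM in hda6-1 h2a.z-5 up to 38.5 CPM in hda9-1 h2a.z-5, against 36 CPM in Col-0. With the block it was lower in hda6-1 than in hda9-1, by -0.35 ± 0.11 (edgeR adjusted p = 0.0236, 29.5% of all genes called). It was also lower in hda6-1 h2a.z-5 than in hda9-1 h2a.z-5, by -0.40 ± 0.11 (0.0129, 28.5%). The sirtuin gene SRT1 averaged between 3.59 and 4.56 CPM in the 5 mutants, against 4.24 CPM in Col-0. SRT2, the other sirtuin gene, averaged between 14.9 and 18.2 CPM in the mutants, against 15.5 CPM in Col-0. Averaged over backgrounds, SRT2 was higher with h2a.z-5 by 0.16 ± 0.13 (edgeR adjusted p = 0.505), which passed with the block (0.0350, 21.4% of all genes called).

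**Figure D4:**
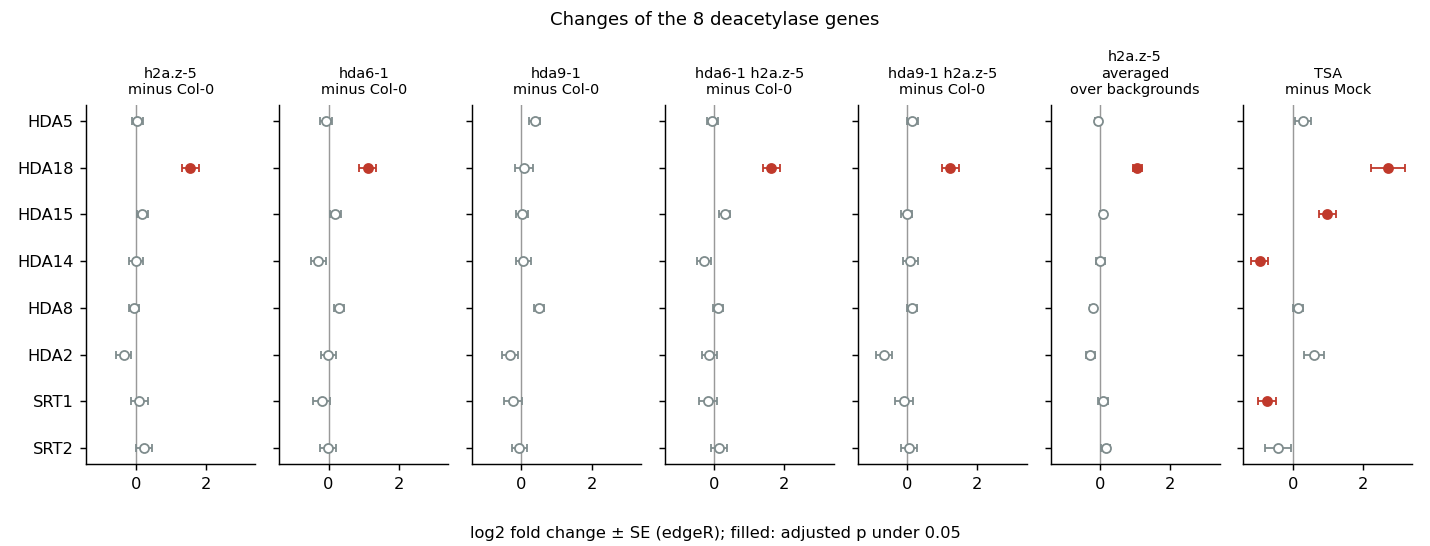
Log2 fold changes with standard errors of the 8 genes in the 5 mutants over Col-0, in the average h2a.z-5 change over backgrounds and in TSA over Mock; filled red points passed at an edgeR adjusted p under 0.05. On soil HDA18 is the filled gene, with changes of 1.12 to 1.63 in 4 mutants, and in TSA HDA18 and HDA15 are filled on the right and HDA14 and SRT1 on the left.

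TSA changed 4 of the 8 genes, 2 in each direction, where 35.2% of all genes tested were called (18.5% higher and 16.7% lower), so the share among the members is not far from the background. HDA18 rose most of the 8. The TSA libraries had 13.9, 9.90, 16.5, 10.5 and 5.91 CPM, against 1.45, 2.18, 3.30, 1.34 and 0.412 CPM in Mock, from 241 to 633 counts in TSA and 19 to 116 in Mock. Every TSA library lay above every Mock library, and replicate 5 was the lowest in both groups. Of all genes, 23.2% had ranges that did not overlap between TSA and Mock, in either direction. The log2 fold change was 2.71 ± 0.48 (edgeR adjusted p = 0.00173), an average of 11.3 ± 4.05 CPM in TSA against 1.73 ± 1.08 CPM in Mock (SD, n = 5), higher in 5 of 5 libraries with the same replicate number. The authors' deposited table also gives 2.71. Per kilobase of exons, HDA18 in TSA reached 5.0 ± 1.79 CPM and stood near HDA2 at 5.57 ± 1.76 and HDA14 at 4.89 ± 1.18.

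HDA15 rose and HDA14 fell. HDA15 had 71.6, 70.7, 43.9, 84.6 and 36.4 CPM in TSA, against 26.7, 39.6, 35.5, 27.9 and 25.2 CPM in Mock. Its log2 fold change was 0.99 ± 0.25 (edgeR adjusted p = 0.0117), it was higher in 5 of 5 pairs of replicate numbers, and the ranges overlapped only through replicate 5 of TSA. HDA14 had 8.59, 9.93, 6.76, 7.86 and 5.07 CPM in TSA, against 16.8, 16.5, 14.3, 17.1 and 8.91 CPM in Mock. Its log2 fold change was -0.95 ± 0.24 (edgeR adjusted p = 0.0111), lower in 5 of 5 pairs, and only replicate 5 of Mock lay within the TSA range. Per kilobase of exons, HDA14 was the highest of the 8 in Col-0 on soil and above 5 others in Mock, but above only SRT1 in TSA.

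SRT1 was also lower with TSA. The TSA libraries had 1.89, 3.59, 3.81, 2.01 and 3.65 CPM, against 5.64, 4.85, 4.21, 5.16 and 5.16 CPM in Mock, without overlap, as for 23.2% of all genes. The log2 fold change was -0.74 ± 0.25 (edgeR adjusted p = 0.0407), and it lost the call without replicate 1, 2 or 4 of Mock or replicate 1 or 4 of TSA (0.0612 to 0.0866). The other sirtuin gene, SRT2, had 13.6, 17.0, 10.5, 13.0 and 4.49 CPM in TSA, against 17.9, 18.8, 18.4, 16.8 and 6.25 CPM in Mock. It was lower in 5 of 5 pairs, at -0.41 ± 0.37 (edgeR adjusted p = 0.404), and replicate 5 lay far below the rest in both groups.

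HDA2, HDA5 and HDA8 did not pass. HDA2 had 8.06, 8.0, 4.46, 7.43 and 11.5 CPM in TSA, against 5.05, 3.41, 5.09, 4.71 and 7.81 CPM in Mock, a log2 change of 0.60 ± 0.29 (edgeR adjusted p = 0.126). It passed without replicate 5 of Mock (0.79 ± 0.27, edgeR adjusted p = 0.0324) and, in a fit added after the data were seen, without replicate 5 of both groups (0.61 ± 0.24, 0.0421). HDA5 had 66.9, 71.8, 51.1, 57.4 and 44.4 CPM in TSA, against 46.5, 61.0, 55.1, 49.8 and 26.3 CPM in Mock, a change of 0.29 ± 0.23 (edgeR adjusted p = 0.357). HDA8, with 19.8 to 26.1 CPM in TSA and 20.0 to 23.4 CPM in Mock, had the smallest change of the 8, 0.14 ± 0.14 (edgeR adjusted p = 0.463). Without replicate 5 of both groups HDA18, HDA15 and HDA14 kept their direction and call, at 2.62 ± 0.30, 1.06 ± 0.22 and -0.97 ± 0.18.

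**Figure D5:**
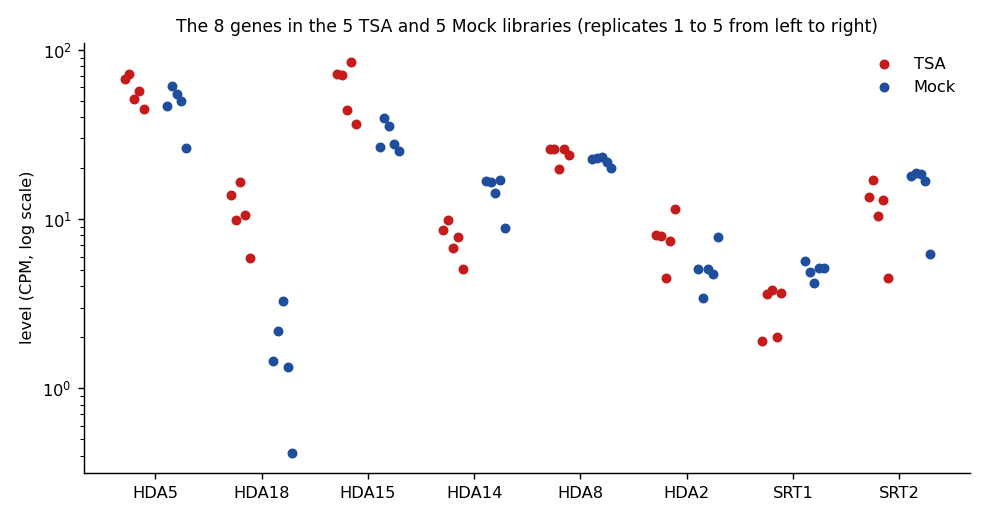
Scaled level (CPM, log axis) of the 8 genes in each TSA library (red, left) and each Mock library (blue, right), with replicates 1 to 5 from left to right in a group. HDA18 and SRT1 are the genes whose groups do not overlap, and replicate 5 is the lowest of its group for HDA18, HDA5, HDA15, HDA14 and SRT2.

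Within the pair, HDA18 made up 17.2%, 12.1%, 24.4%, 15.5% and 11.7% of the HDA5 plus HDA18 counts in TSA, against 3.02%, 3.45%, 5.65%, 2.62% and 1.54% in Mock. The mean difference was 12.9 percentage points, with p = 0.00794 in the exact permutation test, two-sided, the smallest that 5 against 5 libraries allow. Taken within replicate numbers, the exact sign-flip test gave p = 0.0625, which is also its smallest value and cannot pass. All 5 differences pointed the same way.

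The gene on the other side of HDA18, AT5G61090, lies upstream on the same strand, with 264 bases between the gene models. The annotation describes it, in most of its transcripts, as a polynucleotidyl transferase of the ribonuclease H-like superfamily. It rose with TSA too, to 2.21 ± 1.3 CPM in TSA against 0.114 ± 0.117 CPM in Mock (SD, n = 5), from 369 counts in all in TSA and 20 in Mock, by 4.26 ± 0.76 on the log2 scale (edgeR adjusted p = 0.00170). In the genotypes its group means stayed between 0.213 and 0.410 CPM, from 5 to 25 counts per library. It was not called in any genotype contrast in which HDA18 was. HDA5, on the downstream side, was not called in those contrasts either. The 250 bases before the HDA18 start, which fill most of that gap, are shown because the genes on both sides of it moved with TSA (minus strand, 5′ to 3′, chr5:24574388-24574637, TAIR10.1).
HDA18 upstream: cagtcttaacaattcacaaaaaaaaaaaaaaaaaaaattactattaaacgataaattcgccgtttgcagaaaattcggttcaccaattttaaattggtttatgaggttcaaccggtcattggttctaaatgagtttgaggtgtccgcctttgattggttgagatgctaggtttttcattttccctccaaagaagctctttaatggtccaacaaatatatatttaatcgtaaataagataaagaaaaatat
Both strands of this window were searched for the G-box CACGTG, the evening element AAAATATCT, the TATA box as TATAAA and the telo-box AAACCCTA, and none was found, so no letter is in capitals. Of 27444 windows of the same length before protein-coding genes, 6.49%, 2.36%, 47.3% and 4.49% hold them. Only these exact letters were searched, so other forms, TATA-like stretches among them, were not looked for. Among the other members, TATAAA occurs before HDA8, HDA2 and SRT1. HDA14 also has a close neighbour, AT4G33480, with 19 bases between the gene models. That gene rose to 48.5 ± 7.42 CPM in TSA, against 24.3 ± 2.67 CPM in Mock, by 1.00 ± 0.16 on the log2 scale (edgeR adjusted p = 0.00105), while HDA14 fell.

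The other deacetylase genes rose with TSA where they were called. Of 7 tested, 5 were higher and 0 lower, with or without the replicate block, where 18.5% of all genes were called higher and 16.7% lower (22.7% and 22.1% with the block, 44.8% in all). They had a median log2 change of 0.85 against -0.07 over all genes and 0.22 over the 8 members. HDA19, a class I enzyme gene, averaged 245 ± 48.7 CPM in TSA, against 117 ± 28.8 CPM in Mock (SD, n = 5, 1.07 ± 0.24, edgeR adjusted p = 0.00570). HDA6, of the same class, changed by 1.09 ± 0.21, and the plant-specific HDT1, HDT2 and HDT3 by 0.85 ± 0.24, 0.75 ± 0.18 and 1.31 ± 0.20. Of 11 acetyltransferase genes, which encode enzymes of the opposite reaction, 0 were higher and 3 lower, and with the block HAG2 was higher too (0.62 ± 0.19, edgeR adjusted p = 0.0270). HAC1 averaged 35.2 ± 7.81 CPM in TSA, against 62.8 ± 13.8 CPM in Mock (-0.83 ± 0.21, edgeR adjusted p = 0.0110), HAC12 changed by -0.99 ± 0.22 and HAC4 by -1.85 ± 0.29. The median of the acetyltransferase genes was -0.34.

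Of 15 genes known as partners of the members, 4 were higher and 0 lower with TSA, with a median of 0.10. That count is near the share of all genes called higher. With the replicate block 4 were higher and 3 lower, the added ones being HFR1 (-2.70 ± 0.62, edgeR adjusted p = 0.00894), MYB96 (-1.91 ± 0.17, 0.000277) and ENAP1 (-0.85 ± 0.22, 0.0143). The HFR1 ranges overlapped, at 1.32 to 51.4 CPM in TSA against 24.1 to 53.5 CPM in Mock. LOS2, which encodes enolase and a repressor form bound by SRT1, averaged 3428 ± 1587 CPM in TSA, against 798 ± 94.0 CPM in Mock (SD, n = 5, 2.1 ± 0.37, edgeR adjusted p = 0.00153). FVE, a partner of HDA5, changed by 0.88 ± 0.28, and NF-YC3 and HDA6 were the others called, at 1.31 ± 0.17 and 1.09 ± 0.21.

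Against Col-0 on soil the same lists held few calls. In h2a.z-5 edgeR and DESeq2 called 0 of 8 other deacetylase, 0 of 11 acetyltransferase and 0 of 15 partner genes, of which 2, 1 and 1 had an unadjusted p under 0.05. In the main test HDA6 was the 1 called in hda6-1 and HDA9 the 1 called in hda9-1, both being the genes named in the labels. In hda6-1 h2a.z-5 HAF2, an acetyltransferase gene, was higher (2.32 ± 0.49, edgeR adjusted p = 0.00764) at 0.958 ± 0.199 CPM against 0.191 ± 0.105 CPM in Col-0 (SD, n = 3). HDA7 was also called there, at 55 counts in 3 libraries against 0 in Col-0, and 6.01% of all genes were called. In hda9-1 h2a.z-5 HDA9 and HDT4 were lower, where 5.89% of all genes were called. The light signalling genes PIF1 and HFR1 and the drought response gene MYB96 were higher there, by 0.85 ± 0.20, 1.54 ± 0.33 and 0.74 ± 0.20. The replicate block added calls in each of these contrasts. PIF1 was then higher in h2a.z-5 (edgeR adjusted p = 0.0343, 3.78% of all genes called) and HAF2 in hda6-1 (0.0225, 4.84%). HDT4 and HY5, a factor of light responses, were lower in hda9-1 (0.0153 and 0.0139, 16.3% of all genes called). In hda6-1 h2a.z-5 PIF1 was higher (0.0249) and HY5 lower (0.0320), where 14.4% of all genes were called. In hda9-1 h2a.z-5 HDA7 and HAG2 were higher (0.0298 and 0.0460), and HY5 and NF-YC3 lower (0.00427 and 0.0324), where 23.7% of all genes were called. Averaged over backgrounds, the main test called 2 of 8 other deacetylase genes (HDA6, HDA7), where 8.07% of all genes were called. There it called 4 of 15 partner genes (HDA6, PIF1, HFR1, MYB96) and 0 of 11 acetyltransferase genes, of which DESeq2 called 1. In hda6-1 against hda9-1 it called 3 of 8 other deacetylase genes (HDA6, HDA7, HDA9), where 10.7% of all genes were called. HDA6 was the 1 partner gene called in that contrast, and HAF2 the 1 acetyltransferase gene.

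Markers of other tissues and of dividing cells moved with some of the groups in which HDA18 was high. Summed flower markers, 7 genes, lay at 9.0 to 16.0 CPM in h2a.z-5. They lay at 7.27 to 16.0 CPM when hda6-1 was combined with it and at 4.42 to 16.3 CPM with hda9-1, against 2.99 to 5.37 CPM in Col-0. None of the 7 was at 0 in every library of a group. Averaged over backgrounds, 6 of the 7 were higher with h2a.z-5, where 8.07% of all genes were called in either direction. CYCB1;1 was the 1 of 4 dividing cell markers called. AG, the other flower marker, went the opposite way, at -0.46 ± 0.25 (edgeR adjusted p = 0.314) in that average. It was lower than Col-0 in hda6-1 h2a.z-5 (-1.84 ± 0.42, edgeR adjusted p = 0.0137) and hda9-1 h2a.z-5 (-1.68 ± 0.42, 0.0270), and in h2a.z-5 it stood at -1.28 ± 0.41 (0.223, and 0.0195 with the replicate block). The part of these markers in the HDA18 result was not tested. In the libraries labelled hda6-1, where HDA18 was also raised, the flower markers summed to 1.00 to 1.79 CPM, below Col-0. AG was the 1 of the 7 called there by the main test, and it was lower (3.05% of all genes called). In TSA the 4 dividing cell markers summed to 36.1 to 77.6 CPM, against 15.5 to 32.5 CPM in Mock, with 2 higher. The 8 root markers summed to 10.5 to 93.4 CPM in TSA (median 13.1), against 11.4 to 22 CPM in Mock (median 15.7). Of 7 tested 2 were higher, where 18.5% of all genes were called higher with TSA and 16.7% lower. Of 4 flower markers tested 1 was higher and 2 were lower, and of 4 leaf markers edgeR and DESeq2 called 0, with 0 at an unadjusted p under 0.05. With the replicate block 1 root marker was higher, 1 flower marker was higher and 3 were lower, and 1 leaf marker, RBCS1A, was higher (0.95 ± 0.30, edgeR adjusted p = 0.0329). Of all genes, 22.7% were called higher and 22.1% lower with the block. The part of these markers in the TSA changes was not tested.

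HDA18 and HDA5 did not follow each other on soil. Pearson's r of their log2 levels (0.5 CPM added) was -0.24 over the 18 genotype libraries and 0.67 over the 10 TSA and Mock libraries, as a description over libraries that share genotype, treatment and replicate number. The 4 genes most like HDA18 over the genotype libraries were AT5G09700, SDH1-2, AT2G45290 and AT5G07760, with r from 0.91 to 0.92. They averaged 0.200, 0.864, 21.0 and 1.03 CPM there, so all but AT2G45290 were low, and AT5G09700 lay below the 0.5 CPM added. SDH1-2 encodes a subunit of succinate dehydrogenase. Over the TSA and Mock libraries they were UREG, emb2746, BUB3.1 and AT5G48650, with r from 0.98 to 0.99. For HDA5 they were AT3G15430, AT3G58640, SEC and AT5G11700 over the genotype libraries, with r from 0.93 to 0.94, and MGT10, ARF4, SVL2 and emb1138 over the TSA and Mock libraries, with r from 0.97 to 0.98. One in 100 tested genes had r above 0.74 with HDA18 and above 0.85 with HDA5 over the genotype libraries, and above 0.95 and 0.90 over the TSA and Mock libraries. Among the members, HDA14 was nearest to HDA5 over the genotype libraries (r = 0.76), and HDA15 was nearest to HDA18 over the TSA and Mock libraries (r = 0.83).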

How the data were processed

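Per the file headers, the authors deposited raw counts per gene, in 1 table for 18 genotype libraries and in another for 10 TSA and Mock libraries. Per the file headers, the authors' comparison tables give a log2 fold change and an adjusted p-value for each gene, copied here as side values. For the RNA reads, aligner and counter were not given in the sources used here. In the submitters' processing notes the genome is TAIR10. Groups follow the labels, although the series text has nrp1-1 nrp2-2 in place of h2a.z-5.

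The test was edgeR's (version 4.0.16, R 4.3.3, quasi-likelihood F test, two-sided, TMM scaling, filterByExpr with minimum count 10 and minimum total 15). The 18 genotype libraries were fitted together (12 residual degrees of freedom) and the 10 others apart (8). Adjustment was by Benjamini-Hochberg over all genes within a contrast, and SE was taken from the fold change and the F value. There were 15 contrasts, 2 of them added after the data were seen. CPM uses TMM-scaled library sizes. Alternatives were DESeq2 1.42.0, other scalings, no filter, a replicate block, 2 groups only and leaving out libraries. The edgeR steps were run on simulated data, with independent libraries and the same spread for every gene of both tables. That run does not check the test on paired libraries. Nor does it check the wider spread of TSA and Mock (median biological coefficient of variation 35.3%, against 20.6% in the genotypes). The HDA18 share was tested by exact permutation over libraries.

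Deviations from the group means correlated between libraries with equal replicate numbers, at r of 0.142 to 0.647 over 45 genotype pairs and 0.101 to 0.497 over 5 TSA and Mock pairs. The numbers were therefore taken to pair the samples, from the data and not from the labels. The main edgeR test did not use this pairing, so its calls treat the libraries as unpaired. Only the replicate block and the sign-flip tests used it. Gene models and sequences came from the RefSeq annotation of TAIR10.1. Similar genes were the 4 with the highest Pearson r. Named genes were the members, those 4, the nearest genes beside a called member, and called genes of the lists. The members and lists were chosen with earlier results of these data known. Tables of transposable elements were not used here.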

Additional observations from a re-analysis of the deposited data

Results flagged for a closer look

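SRT2 in the Mock group had 1 library far below the others: replicate 5 stood at 6.25 CPM, while the other 4 lay between 16.8 and 18.8 CPM. Replicate 5 was also the lowest TSA library, at 4.49 CPM, against 10.5 to 17.0 CPM in the other TSA libraries. The gap in Mock exceeded Dixon's 95% critical value, which chance exceeds in about 1 in 20 groups, and 18 groups were looked at. Without replicate 5 of both groups, the log2 change of SRT2 with TSA was -0.41 ± 0.18 (edgeR adjusted p = 0.0682), against -0.41 ± 0.37 (0.404) with it.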

How the results depend on the processing

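No called change reversed its direction under any alternative run. Of 120 changes of single members, 111 kept their side of the threshold with replicate number as a block and 9 became called, DESeq2 added 1, and RLE scaling, upper-quartile scaling and no filter on low counts changed 0. The shares of all genes called with the block were 16.3% in hda9-1, 23.7% in hda9-1 h2a.z-5, 21.4% in the average over backgrounds, 29.5% in hda6-1 against hda9-1 and 28.5% between the combined mutants, and several of the following counts are near them. With the block the number of the 8 members called was 2 in hda9-1 (1 with DESeq2, 0 in the main test), 2 in hda9-1 h2a.z-5, 3 in the average over backgrounds and 3 in hda6-1 against hda9-1 (1 in each main test), and 2 in hda6-1 h2a.z-5 against hda9-1 h2a.z-5 (0 in the main test). In fits of only 2 groups it was 0 in h2a.z-5, hda6-1 and hda9-1 h2a.z-5, where all 18 libraries gave 1, so fewer libraries estimate the spread. Leaving out 1 library gave between 0 and 1 called members in hda6-1, in hda9-1 h2a.z-5 against hda9-1 and in hda6-1 against hda9-1. Over 944 such changes of members, 14 lost a call and 1 gained one. The HDA18 share in TSA minus Mock, 12.9 percentage points, could not pass within replicate numbers (exact p = 0.0625). Without single libraries HDA18 changed by 1.38 to 1.84 in h2a.z-5, 0.89 to 1.41 in hda6-1, 1.45 to 1.91 in hda6-1 h2a.z-5, 1.05 to 1.51 in hda9-1 h2a.z-5 and 2.45 to 3.07 with TSA. Across all genes the block called more, 785 in h2a.z-5 and 3392 in hda9-1, against 189 and 363 in the main test. Leaving out 1 library moved some counts over all genes by more than 1.5 times. In hda6-1 h2a.z-5 against h2a.z-5, 420 became 248 to 269 without any h2a.z-5 library. Against hda6-1, 469 became 290 to 306 without its replicate 1 or 3 or replicate 3 of hda6-1. In hda9-1 h2a.z-5 against h2a.z-5, 133 became 33 to 65 without any h2a.z-5 library or its own replicate 3. Against hda9-1, 196 became 57 to 127 without any hda9-1 library or its own replicate 1. In hda6-1 against hda9-1, 2231 became 1452 and 1472 without replicate 2 of hda6-1 or 3 of hda9-1. In hda6-1 h2a.z-5 against hda9-1 h2a.z-5, 1878 became 888 to 1142 without any library of hda6-1 h2a.z-5 or replicate 3 of hda9-1 h2a.z-5. In the hda9-1 by h2a.z-5 term, 7 became 4 without replicate 2 or 3 of hda9-1. With TSA 7115 became 10959 without replicate 5 of both groups. HDA18 had 38 to 71 counts in Col-0 and 19 to 116 in Mock libraries, which limits the precision of its changes.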
